A study of Mus musculus with 2 samples.

Results

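The 10 genes described here, Trem2, Apoe, Lpl, Cd36, Fabp5, Gpnmb, Cd63, Cd9, Spp1 and Arg1, are used together as signs of the lipid-associated state of macrophages. They were taken by symbol, all 10 were found, and they are 10 of the 32285 genes in the files. They were measured in single cells of mouse kidney 14 days after unilateral ischemia-reperfusion injury, in 2 libraries. One library came from a Cre- mouse, labelled Control IR kidney. The other, labelled PHD KO IR kidney and called the library labelled PHDTiEC below, came from a littermate that carried Cdh5-CreERT2 together with the floxed alleles Phd1f/f, Phd2f/f and Phd3f/f. In that genotype the Cdh5 promoter, active in endothelium, drives a tamoxifen-dependent Cre that should delete the oxygen sensors PHD1, PHD2 and PHD3 in endothelial cells, so macrophages carry no intended deletion. Per the study's methods the mice were males of 8 to 10 weeks, the renal artery was clamped for 25 minutes, and 4 doses of tamoxifen were given after the injury. Each genotype has 1 library, so differences between them rest on single samples without replicates, no p-value is given, and genotype and library cannot be told apart.

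Macrophages that engulf dying cells and lipoproteins take up large amounts of lipid, and a program built around the receptor TREM2 lets them bind, store and pass it on. Such cells are known from obese fat tissue, atherosclerotic plaques, fatty liver and injured kidney, where they gather next to dying parenchymal cells. Several genes of the program are not private to macrophages. Osteopontin, the Spp1 product, is made in quantity by injured tubular epithelium, and the tetraspanins Cd9 and Cd63 are carried by many cell types.

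After filtering, 8548 Cre- barcodes and 9309 barcodes labelled PHDTiEC remained, with medians of 7500 and 7898 UMIs (unique molecular identifiers, 1 per captured mRNA molecule). Of these barcodes, 28 had the same sequence in both libraries. Cells were clustered without the 10 genes and named by marker genes, which gave 2691 and 2876 macrophage-like barcodes, 235 and 162 monocyte-like, 201 and 250 dendritic-like, 2298 and 2484 tubular-like and 407 and 553 endothelial-like barcodes (Cre- first here and below). All 12 macrophage markers were detected in the macrophage-like cells of both libraries, at a summed level of 16446 and 16231 CPM (counts per 1000000 UMIs of the class), against 349 and 404 CPM in tubular-like cells. None of the targeted genes had a lower RNA level in endothelial-like cells of the library labelled PHDTiEC. Egln2 (PHD1) was 36.7 and 38.5 CPM, Egln1 (PHD2) 67.4 and 187 CPM, and Egln3 (PHD3) 24.7 and 146 CPM. In macrophage-like cells Egln2 was 29.6 and 31.2 CPM, Egln1 29.0 and 30.1 CPM, and Egln3 1.26 and 1.25 CPM. Egln1 and Egln3 were thus higher in endothelial-like but not in macrophage-like cells, and why was not tested. Counts at the 3' end need not show the loss of a floxed exon, so the deletion is not read from these levels. The paper reports loss of the proteins from kidney endothelium by immunostaining, in uninjured mice of this genotype.

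The RefSeq promoter windows (build GRCm38.p6, 250 bases before the start site to 50 after it) cover 7 of the 10 genes in 10 windows. Lpl, Fabp5 and Arg1 had none. Short motifs were searched on both strands: the E-box CACGTG, its variant CATGTG, the AP-1 type site TGANTCA, and ACGTG, the core of the hypoxia response element, which overlaps CACGTG. They occur in 7.15%, 14.2%, 7.81% and 19.6% of the 32851 windows in the table. The windows of Trem2 (chr17:48346151-48346450, plus strand), Gpnmb (chr6:49036268-49036567, plus strand) and Spp1 (chr5:104434861-104435160, plus strand) are shown. These genes are examples of the cell class, cluster and library patterns that follow. Capitals mark a match to TGANTCA, and the other letters match none of the motifs.
Trem2: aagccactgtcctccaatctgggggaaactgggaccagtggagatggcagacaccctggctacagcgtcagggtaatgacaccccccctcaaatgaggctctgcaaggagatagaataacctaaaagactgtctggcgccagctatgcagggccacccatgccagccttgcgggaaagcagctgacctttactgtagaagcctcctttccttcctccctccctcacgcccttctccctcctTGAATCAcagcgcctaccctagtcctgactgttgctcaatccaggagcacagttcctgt
Gpnmb: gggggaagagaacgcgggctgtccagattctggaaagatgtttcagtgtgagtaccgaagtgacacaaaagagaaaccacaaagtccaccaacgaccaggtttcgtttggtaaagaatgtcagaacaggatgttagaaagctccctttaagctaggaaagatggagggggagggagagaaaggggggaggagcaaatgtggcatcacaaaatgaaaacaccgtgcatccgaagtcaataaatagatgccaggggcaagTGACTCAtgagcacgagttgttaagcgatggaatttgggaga
Spp1: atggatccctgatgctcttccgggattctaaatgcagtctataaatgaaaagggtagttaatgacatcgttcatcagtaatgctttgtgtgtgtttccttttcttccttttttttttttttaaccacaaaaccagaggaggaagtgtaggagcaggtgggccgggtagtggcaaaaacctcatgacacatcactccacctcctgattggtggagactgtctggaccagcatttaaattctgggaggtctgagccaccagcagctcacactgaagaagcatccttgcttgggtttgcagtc
Trem2 and Gpnmb each held 1 match to TGANTCA, 9 bases before the start site in Trem2 and 8 bases after it in Gpnmb, and neither held the other motifs. The first and second Spp1 windows, the 3 Apoe windows and the Cd36 window held no match. Cd63 held 1 match to ACGTG and Cd9 1 to CATGTG. A match describes these letters only.

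Where the 10 genes were found came first. Levels are the UMIs of a gene summed over the barcodes of a class and divided by all UMIs of that class, in CPM. They count 3' ends and are not scaled by gene length, so levels are compared between cells and not between genes. Intervals in this text are 95% counting intervals and cover counting error only.

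Trem2 (chr17:48346401-48354147, plus strand), the lipid-sensing receptor at the head of the program, was at 675 and 705 CPM in macrophage-like cells. Of all its UMIs, 90.0% and 88.6% lay in that class. NK-like cells came next at 124 and 151 CPM, and by the mean of the libraries monocyte-like cells followed at 60.8 and 90.6 CPM, a level whose interval met that of the class below. Thinned to 2000 UMIs a barcode, 52.3% and 54.6% of macrophage-like barcodes held a Trem2 UMI, against 3.41% and 3.17% of T-, NK- and B-like barcodes, which should lack it. Without thinning the shares were 72.9% and 74.5% against 5.81% and 4.41%, at median depths of 6867 and 7305 UMIs against 3127 and 3277. Trem2 in macrophage-like cells thus stood far above its level in lymphoid cells.

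Apoe (chr7:19696109-19699188, minus strand), which encodes the lipoprotein that carries cholesterol out of cells, was at 30204 and 36462 CPM in macrophage-like cells, 86.7% and 86.4% of its UMIs. Its thinned share was 96.2% and 96.6% there, and still 43.3% and 50.6% in T-, NK- and B-like cells. Within those lymphoid cells the NK-like cluster stood apart, at 9718 and 15896 CPM of Apoe, while T-like cells were at 606 and 498 CPM. Macrophage markers were at 1516 and 1147 CPM in T-, NK- and B-like cells together, above the 349 and 404 CPM of tubular-like cells. Whether macrophage RNA supplied the NK-like Apoe was not tested. Apoe was thus found in many barcodes of other classes, although its level there was far lower.

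Lpl (chr8:68880491-68907448, plus strand), the lipase that frees fatty acids from triglyceride-rich particles, was at 709 and 646 CPM in macrophage-like cells. Fibroblast-like cells were second at 353 and 236 CPM and by the mean of the libraries monocyte-like cells came next at 183 and 151 CPM. Cd36 (chr5:17781690-17888801, minus strand), a scavenger receptor for oxidized lipoproteins and fatty acids, was at 208 and 194 CPM in macrophage-like cells and at 92.9 and 112 CPM in dendritic-like cells. Both genes had most of their UMIs in macrophage-like cells, 81.8% and 78.8% for Lpl and 85.7% and 83.4% for Cd36. Fabp5 (chr3:10012548-10016607, plus strand), a carrier of fatty acids inside the cell, was at 1148 and 1368 CPM there and at 318 and 260 CPM in dendritic-like cells, its next class. Its thinned share was 23.8% and 28.6% of macrophage-like barcodes against 10.8% and 8.66% in T-, NK- and B-like cells.

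Gpnmb (chr6:49036546-49070929, plus strand), a membrane glycoprotein of phagosomes and lysosomes, was at 607 and 709 CPM in macrophage-like cells. That was 90.9% and 89.9% of its UMIs, and the second class by the mean of the libraries, neutrophil-like cells, was at 61.8 and 67.9 CPM. In the library labelled PHDTiEC thin limb or inner medullary-like cells, at 85.7 CPM, and fibroblast-like cells, at 81.8 CPM, lay above them. Arg1 (chr10:24915221-24927484, minus strand), which splits arginine into ornithine and urea and marks macrophages of repair, was at 218 and 152 CPM, with 93.3% and 85.1% of its UMIs in macrophage-like cells. Only a small part of the macrophage-like barcodes held either gene: 11.3% and 13.7% had a Gpnmb UMI after thinning, and 7.57% and 7.54% an Arg1 UMI. In T-, NK- and B-like cells these shares were 1.54% and 0.722% for Gpnmb and 1.37% and 1.44% for Arg1.

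The tetraspanins and osteopontin were distributed differently. Cd63 (chr10:128900989-128912822, plus strand), a tetraspanin of late endosomes and lysosomes, was highest in PT-like (proximal tubule) cells at 2512 and 2436 CPM, and macrophage-like cells at 1126 and 1140 CPM held 17.8% and 19.3% of its UMIs. Cd9 (chr6:125460266-125494791, minus strand), a tetraspanin of the cell surface, was highest in neutrophil-like cells at 1360 and 1485 CPM, with 609 and 532 CPM in macrophage-like cells. Spp1 (chr5:104435118-104441050, plus strand), which encodes osteopontin, a secreted protein that binds integrins and CD44, was at 25860 and 18749 CPM in tubular-like cells and at 4193 and 2882 CPM in macrophage-like cells. Tubular-like cells held 81.5% and 79.8% of its UMIs and macrophage-like cells 4.75% and 4.56%. After thinning, 71.9% and 60.3% of macrophage-like barcodes had a Spp1 UMI, against 78.2% and 57.7% of T-, NK- and B-like barcodes. Without thinning the shares were 95.7% and 89.9% against 93.3% and 79.1%, in barcodes of unlike depth. After thinning the share was thus close to that of the shallower lymphoid barcodes, and it is not read as expression. The summed level was higher than that of the lymphoid cells, which was 750 and 462 CPM.

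**Figure D1:**
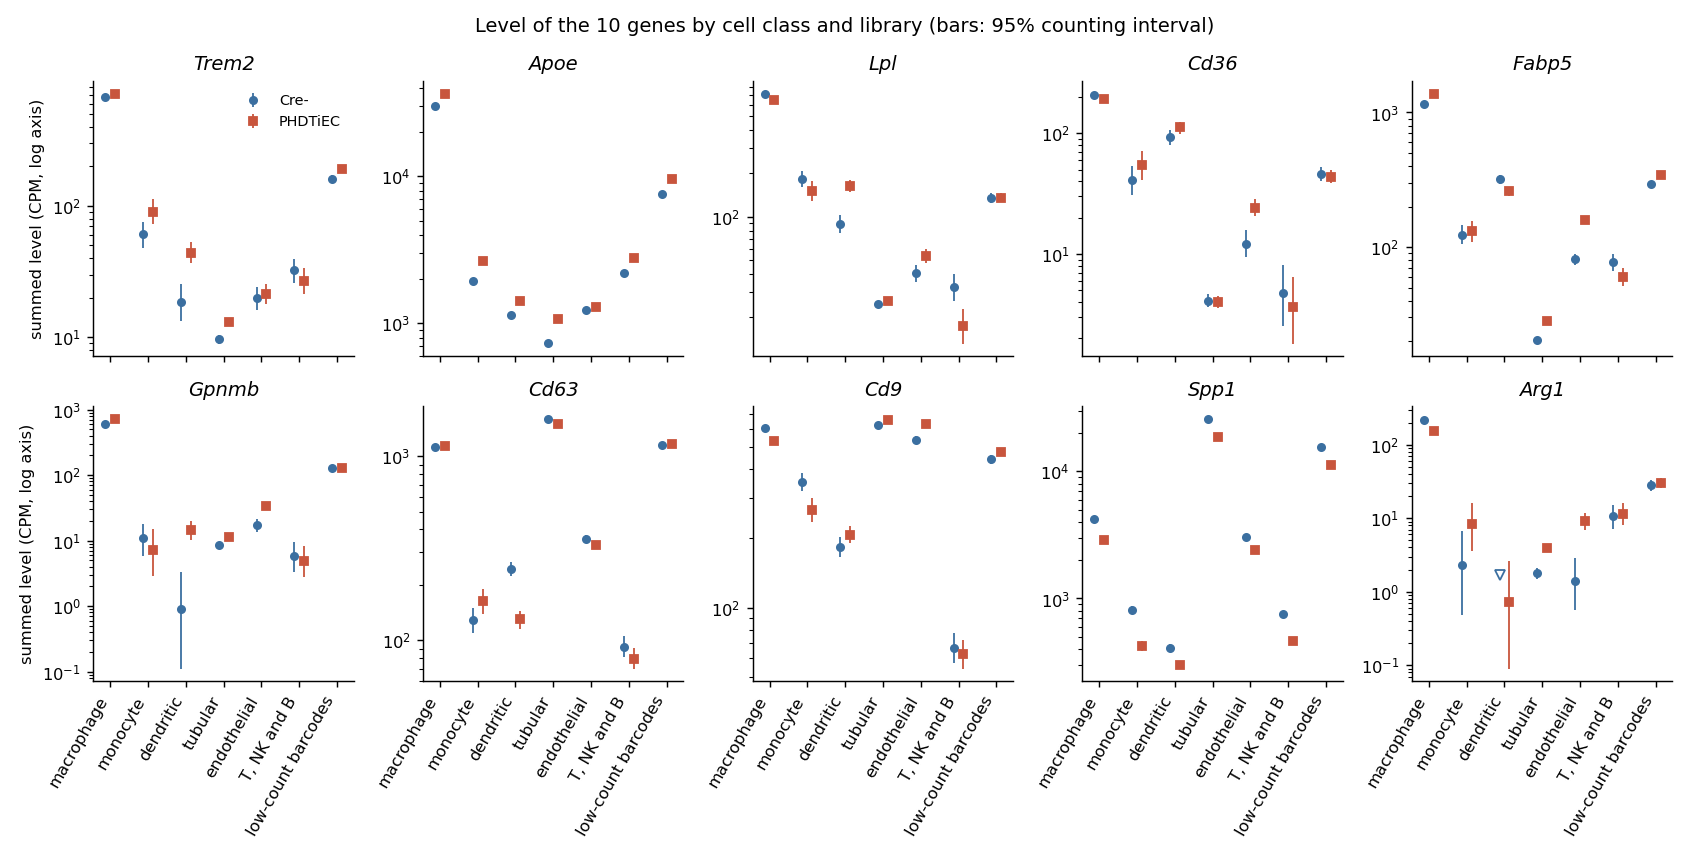
Summed level of each gene (CPM, log axis; each panel has its own range) in 5 cell classes, in T-, NK- and B-like cells together and in barcodes under 100 UMIs, for the Cre- library (blue circles) and the library labelled PHDTiEC (red squares); bars are 95% counting intervals and an open triangle is the upper limit of a count of 0. Trem2, Apoe, Lpl, Cd36, Fabp5, Gpnmb and Arg1 are highest in macrophage-like cells in both libraries, whereas Spp1 and Cd63 are highest in tubular-like cells.

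The libraries were then compared within macrophage-like cells. A gene counts as past the fold where its level differed by at least 1.5-fold and at least 20 UMIs were counted over both libraries. None of the 10 genes was past it: 0 were higher in the library labelled PHDTiEC, where 3.30% of the 13468 genes with enough UMIs were, and 0 were lower, where 4.61% were. The median log2 ratio of the 10 genes was -0.04, beside 0.02 over all those genes, with 5 genes above 0 and 5 below.

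Within that range the genes did not part by role. Trem2 had a log2 ratio of 0.06 (0.03 to 0.09), Cd63 of 0.02 (-0.01 to 0.04) and Cd36 of -0.10 (-0.15 to -0.04). Apoe at 0.27 (0.27 to 0.28), Fabp5 at 0.25 (0.23 to 0.28) and Gpnmb at 0.22 (0.19 to 0.26) were higher in the library labelled PHDTiEC by less than the fold. Lpl at -0.13 (-0.17 to -0.10) and Cd9 at -0.20 (-0.23 to -0.16) were lower. The 2 members furthest from 0 were Spp1 at -0.54 (-0.55 to -0.53) and Arg1 at -0.52 (-0.58 to -0.47). The receptor, the lipid-handling genes and the membrane genes hence all lay closer to 0 than Spp1 and Arg1. Under the 15 alternative settings Spp1 was past the fold in 3, at -0.59 to -0.83, and Arg1 in 1, at -0.59. Without the barcode richest in each gene, Spp1 stood at -0.51 and Arg1 at -0.58. When every barcode was typed alone rather than by its cluster, Arg1 stood at -0.10.

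A few barcodes carried much of each level. In Cre- macrophage-like cells 50% of the Gpnmb UMIs lay in 25 of 2691 barcodes, 50% of the Arg1 UMIs in 29 and 50% of the Spp1 UMIs in 43. In the library labelled PHDTiEC these were 33, 26 and 47 of 2876 barcodes. Trem2 was spread more widely, with 50% of its UMIs in 195 and 237 barcodes, and Apoe most widely, in 398 and 482 barcodes. Summed levels of Gpnmb, Arg1 and Spp1 thus follow a small number of cells.

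**Figure D2:**
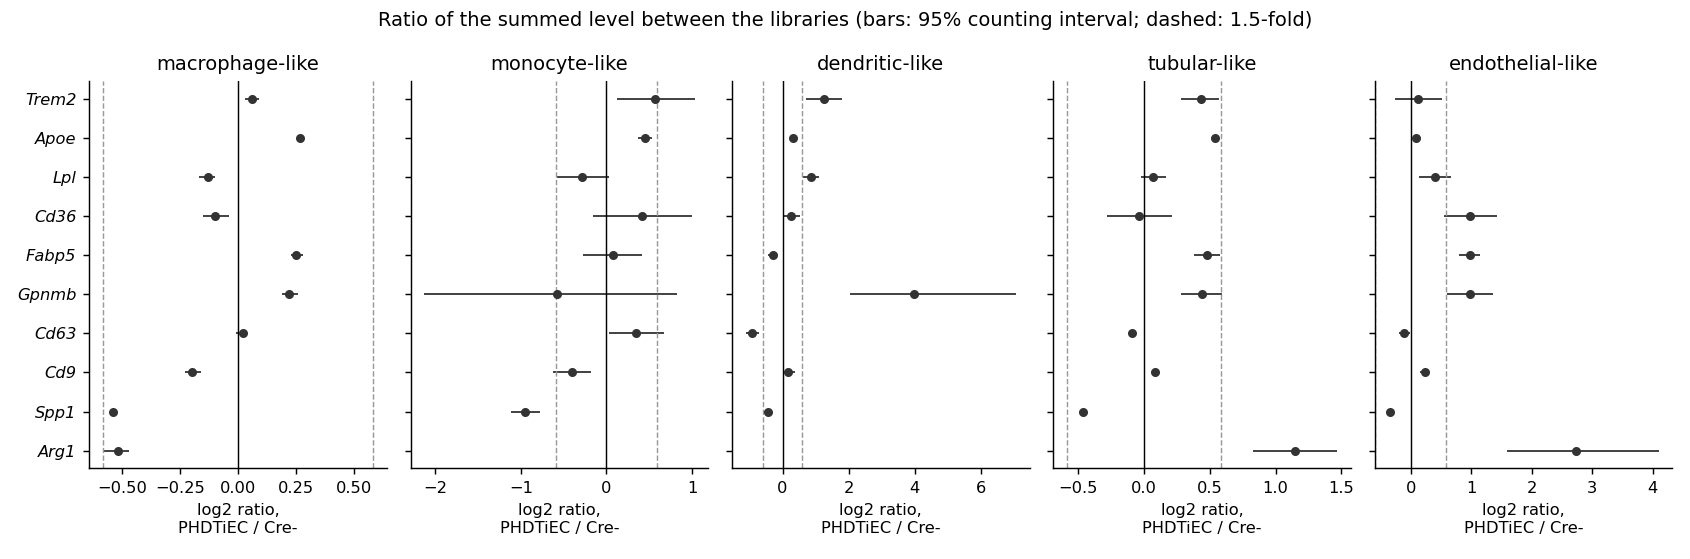
Log2 ratio of the summed level, library labelled PHDTiEC over Cre-, for each gene with at least 20 UMIs in each of 5 classes (horizontal axis ranges differ between panels); points are ratios, bars 95% counting intervals and dashed lines 1.5-fold. In macrophage-like cells all 10 genes lie between the dashed lines, whereas Arg1 in endothelial-like cells (2.73) and Gpnmb in dendritic-like cells (3.98) lie far outside them.

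The genes that work with the members were examined from lists covering their pathways. TREM2 signals through the adaptor DAP12 (Tyrobp) and the kinase SYK and is shed by ADAM10 and ADAM17. Of the 9 genes of this list, 0 were past the fold in either direction, with Tyrobp at 2762 and 2626 CPM, Syk at 97.5 and 110 CPM and a list median of 0.03. Of 19 lysosome and phagocytosis genes 0 were past it, with a median of 0.06. The cathepsin gene Ctss was at 3770 and 4475 CPM and Tfec, a transcription factor of the MiT/TFE family that drives lysosomal genes, at 10.5 and 14.3 CPM. The same count of 0 was found for 9 osteopontin receptor genes (median -0.11) and 14 injury macrophage companions (median 0.00). It was also found for the 8 of 9 arginine and polyamine genes with enough UMIs (median 0.18) and 10 tetraspanins and partners (median 0.09). Of the 15 companions listed, Clec7a was not found by symbol.

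Of 25 lipid uptake, storage and efflux genes, 1 was higher and 1 was lower past the fold, with a median of 0.09. Apoc1, a small apolipoprotein encoded next to Apoe, was higher, at 6.79 and 11.5 CPM (log2 ratio 0.76, 0.48 to 1.04). The lower gene was Vldlr, a lipoprotein receptor, on 33 and 21 UMIs. Abca1 and Soat1, which export cholesterol and store it as ester, were at 241 and 291 CPM and at 140 and 183 CPM. Among the partners of lipoprotein lipase 1 of the 5 with enough UMIs was lower past the fold. That was Gpihbp1, the anchor of the lipase on capillary endothelium and an endothelial marker, with 52 and 10 UMIs. Slc7a2, a transporter that brings in arginine, was at 40.9 and 28.6 CPM (log2 ratio -0.52, -0.66 to -0.38), close to Arg1. Cd81, a tetraspanin partner of Cd9, was at 496 and 375 CPM, a log2 ratio of -0.40.

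Clusters 0, 1, 13 and 19 made up the macrophage-like class. Cluster 0 was led by Ccl8, Ccl12 and Mrc1 and held 1644 and 1721 barcodes. Cluster 1 was led by Mmp12, Gpnmb, Arg1 and Hal, with Fabp5, Cd36 and Lpl also among its top 10 genes, and held 608 and 768 barcodes. Cluster 19 was led by the cell cycle genes Birc5, Mki67 and Top2a with 189 and 165 barcodes, and cluster 13, with 250 and 222 barcodes, was shallow at a median of 745.50 UMIs. The 10 genes were kept out of the clustering, but genes that vary with them were not, so their levels by cluster are a description.

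Most of the 10 genes were higher in cluster 1. Gpnmb was at 9.61 and 15.2 CPM in cluster 0 and at 1272 and 1348 CPM in cluster 1, 132-fold and 88.8-fold higher. Arg1 was 52.8-fold and 17.2-fold higher in cluster 1, Fabp5 23.6-fold and 20.4-fold, Cd36 12.8-fold and 9.94-fold and Spp1 11.5-fold and 9.35-fold. Cd9, Lpl, Trem2 and Cd63 differed less, from 2.43-fold for Cd63 in the library labelled PHDTiEC to 5.98-fold for Cd9 in the Cre- library. Apoe was the exception, 1.13-fold and 1.14-fold higher in cluster 0. The gene for the receptor, Trem2, was thus present across both clusters, at 379 and 404 CPM in cluster 0 and 1062 and 1065 CPM in cluster 1, while Gpnmb and Arg1 were low in cluster 0.

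Spp1 in cluster 0, at 690 and 525 CPM, was no higher than in T-, NK- and B-like cells of the same library in the Cre- sample (750 CPM) and near it in the other (462 CPM). Cluster 0 barcodes were deeper, at medians of 6266 and 6619 UMIs against 3127 and 3277. Whether Spp1 in cluster 0 is background was not tested. In cluster 1 Spp1 was at 7913 and 4908 CPM. Cluster 1 held 76.5% and 74.3% of the macrophage-like Spp1 UMIs, 84.9% and 82.9% of those of Gpnmb, 79.0% and 80.0% of those of Fabp5 and 77.8% and 85.7% of those of Arg1. For Apoe the shares were 41.5% and 44.7%, near the 40.5% and 43.6% of all UMIs of the class that cluster 1 held.

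Cluster 1 made up 22.6% (21.0 to 24.2) of Cre- macrophage-like barcodes and 26.7% (25.1 to 28.4) of those labelled PHDTiEC. Cluster 0 made up 61.1% and 59.8%. The larger share of cluster 1 and its lower Spp1 and Arg1 levels ran in opposite directions. Within cluster 1 the log2 ratio was -0.69 (-0.70 to -0.67) for Spp1, past the fold, and -0.49 (-0.56 to -0.43) for Arg1, while Trem2 stood at 0.00 (-0.03 to 0.04), Gpnmb at 0.08 (0.05 to 0.12), Cd9 at -0.30 (-0.34 to -0.26) and Cd36 at -0.31 (-0.38 to -0.25). Of the 10 genes, 0 were higher past the fold in cluster 1, where 4.60% of 11664 genes were, and 1 was lower, where 3.73% were. Their median was -0.14.

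In the cycling cluster 19 Arg1 was at 335 and 118 CPM (log2 ratio -1.51, -1.68 to -1.34), the only member past the fold there. Of 10074 genes 5.69% were lower and 5.87% higher in this cluster. The share of its barcodes with an Arg1 UMI was 20.6% in both libraries, and 9.71% and 10.7% after thinning. The lower Arg1 level thus came with a like share of barcodes holding the gene. Gpnmb was at 648 and 955 CPM (0.56, 0.48 to 0.64). Cluster 0 had Arg1 at 7.93 and 17.4 CPM (1.13, 0.76 to 1.51) and Gpnmb with a log2 ratio of 0.66 (0.30 to 1.02), both past the fold upward on 85 and 206 Arg1 UMIs and 103 and 180 Gpnmb UMIs. In cluster 0 4.43% of 11930 genes were higher past the fold and 5.03% lower. In the shallow cluster 13 Lpl and Spp1 were lower past the fold, 2 of the 8 members with enough UMIs, where 10.2% of 2596 genes were lower and 14.1% higher. Spp1 was lower in every macrophage-like cluster, at -0.39 in cluster 0, -0.69 in cluster 13 and -0.22 in cluster 19. Arg1 had no common direction among the clusters.

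**Figure D3:**
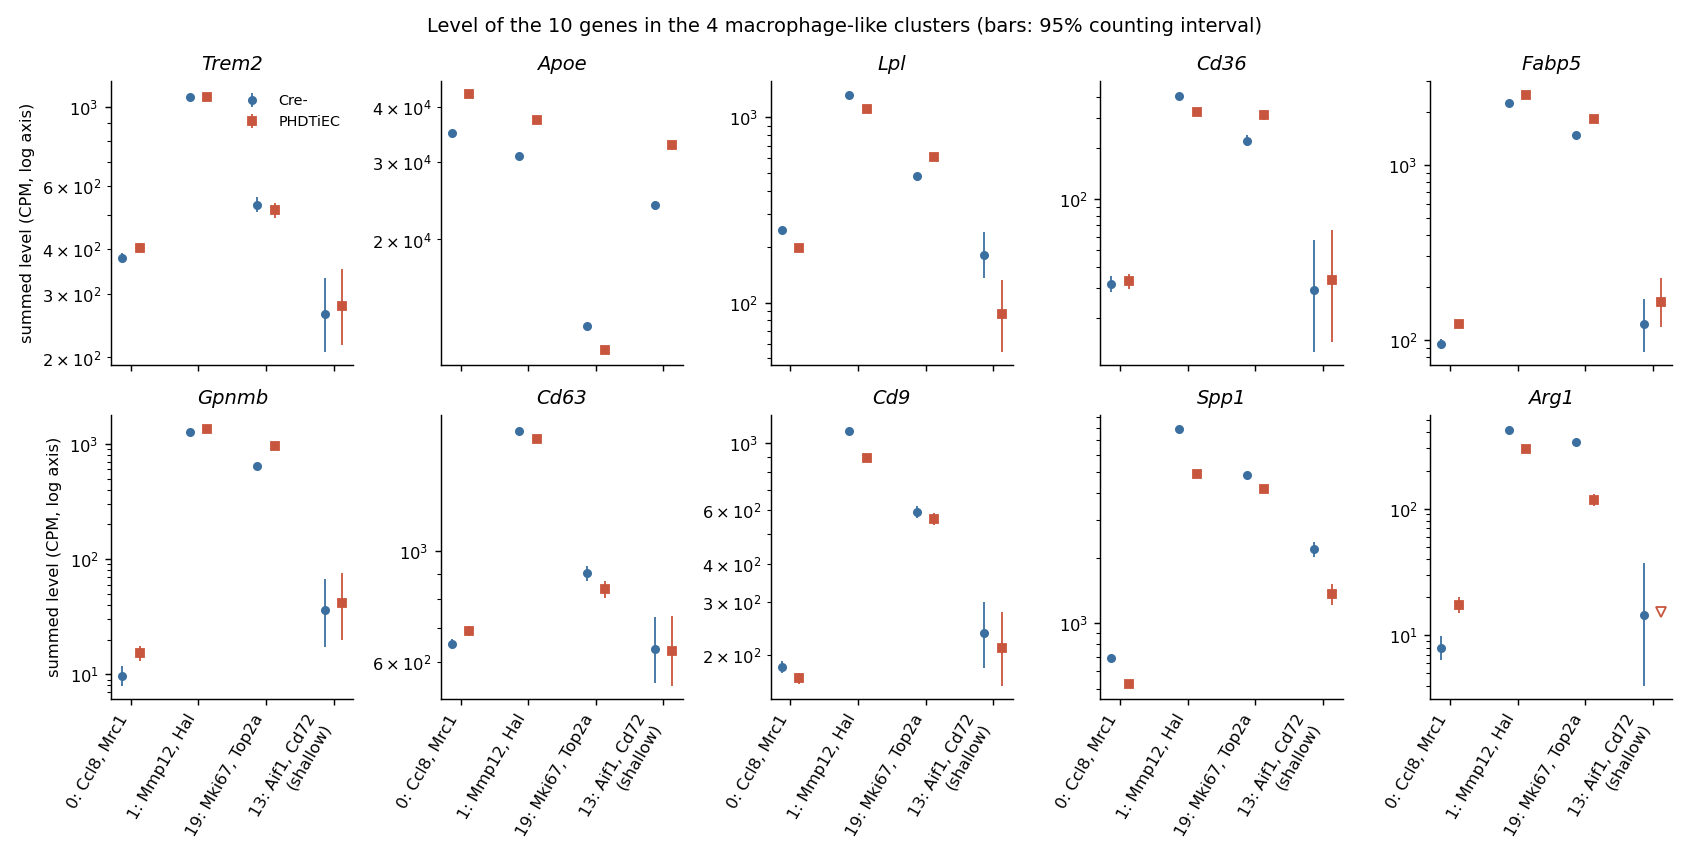
Summed level of each gene (CPM, log axis; each panel has its own range) in the 4 macrophage-like clusters, named by leading genes, for the Cre- library (blue circles) and the library labelled PHDTiEC (red squares); bars are 95% counting intervals and an open triangle is the upper limit of a count of 0. Every gene but Apoe is highest in cluster 1 in both libraries. Arg1 in the cycling cluster 19 is 335 CPM against 118 CPM, with an Arg1 UMI in 20.6% of its barcodes in both libraries.

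When barcodes that scored as doublets were removed and the rest were clustered again, cluster 1 came apart. One group, of 298 and 389 barcodes, was led by Gpnmb, Arg1, Hal, Fabp5, Mmp12, Cd36 and Trem2. The other, of 559 and 707 barcodes, was led by Lyz1, Ccr2 and Itgax and was left unnamed because its top 10 genes held more markers of another class than of its own. Only 54.9% and 53.2% of its barcodes had been in cluster 1. In the Gpnmb-led group Gpnmb was at 1882 and 1978 CPM, Trem2 at 1276 and 1269 CPM, Fabp5 at 3167 and 3383 CPM, Spp1 at 11416 and 6847 CPM (log2 ratio -0.74, -0.75 to -0.72) and Arg1 at 585 and 404 CPM (-0.53, -0.60 to -0.46). In the Ccr2-led group Gpnmb was at 148 and 149 CPM, Spp1 at 1357 and 1202 CPM (-0.17, -0.22 to -0.13) and Arg1 at 80.0 and 81.5 CPM (0.03, -0.15 to 0.21). Spp1 was thus lower in both groups, with a ratio further from 0 in the Gpnmb-led group, and the Arg1 interval of the Ccr2-led group included 0. The Gpnmb-led group was 11.1% (9.97 to 12.4) and 13.6% (12.3 to 14.9) of the macrophage-like barcodes with the Ccr2-led group counted among them.

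The members were also found together in single barcodes. With each macrophage-like barcode thinned to 2000 UMIs, 86.3% and 87.6% of those with a Gpnmb UMI had a Trem2 UMI, against 47.9% and 49.4% of those without. Fabp5 was found in 81.1% and 87.6% beside Gpnmb and in 16.6% and 19.3% without it. Arg1 was found in 28.1% and 19.7% beside Gpnmb and in 4.95% and 5.61% without it. Apoe was near its ceiling either way, at 99.6% and 98.9% against 95.7% and 96.3%. Thinned barcodes held a mean of 4.16 and 4.13 of the 10 genes in macrophage-like cells, 6.10 and 6.06 in cluster 1, 3.44 and 3.28 in cluster 0 and 1.63 and 1.42 in T-, NK- and B-like cells. The barcodes share a library and the clusters above, so these values describe the cells and test nothing between the genotypes. Thinning left out 301 and 276 macrophage-like barcodes.

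**Figure D4:**
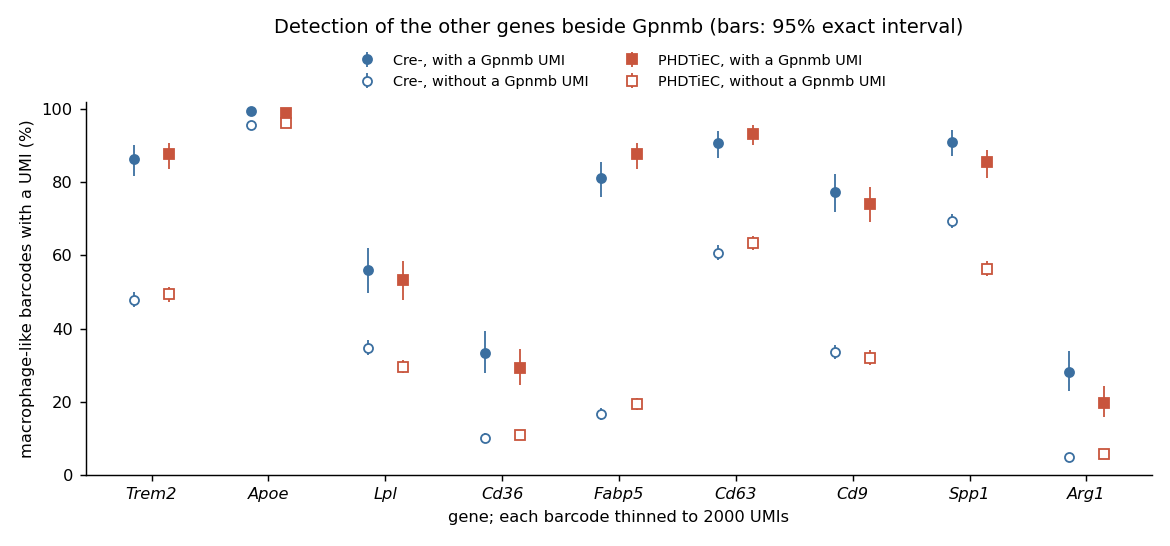
Share of macrophage-like barcodes with a UMI of each other gene, among barcodes with (filled) and without (open) a Gpnmb UMI, each thinned to 2000 UMIs, for the Cre- library (blue circles) and the library labelled PHDTiEC (red squares); bars are 95% exact binomial intervals. All 9 genes were found more often beside Gpnmb, least so Apoe, and Fabp5 rose from 16.6% and 19.3% to 81.1% and 87.6%.

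Across 19 cell classes in the 2 libraries (38 points that share their library and depth), the genes whose log2(CPM + 1) levels were most like those of a member were found among 13056 genes. For Trem2 they were Adgre1, Fcgr1 and C1qa (Pearson's r 0.904, 0.884 and 0.884), and for Apoe they were C1qb, C1qa and C1qc (0.905, 0.904 and 0.893). All of these genes are macrophage markers that named the classes, so their likeness to genes high in macrophage-like cells is partly built in. Gpnmb had Hal, F7 and Arg1 (0.748, 0.745 and 0.741), and Arg1 had Gpnmb, Hist1h2ae and Hist1h2ap (0.741, 0.715 and 0.703). Lpl had Abca9, Gas7 and Lyz2 (0.823, 0.791 and 0.789), Cd36 had Psap, 2310040G24Rik and Plxna4os1 (0.820, 0.818 and 0.814), and Fabp5 had AA467197, Man1c1 and Gltp (0.824 and 0.819 for the first and second). Cd63 was most like Gng12, Syngr1 and Rab11fip5 (0.884, 0.867 and 0.862), Cd9 like the early response genes Fos, Ier3 and Atf3 (0.855, 0.846 and 0.833), and Spp1 like Echdc3, Fbxo36 and Irak1bp1 (0.933, 0.930 and 0.929). Among the members themselves Trem2 and Apoe had r = 0.86 and Trem2 and Spp1 r = -0.24. By pattern across classes, Spp1 and Cd63 (r = 0.84) therefore stood with each other rather than with Trem2.

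Spp1 was lower in the library labelled PHDTiEC in 16 of 19 classes and higher in 3. The classes of a library share its free RNA, so they are not independent. In tubular-like cells its level was 25860 and 18749 CPM (log2 ratio -0.46, -0.47 to -0.46). The segments differed in size, with DCT-like (distal convoluted tubule) cells at 25833 and 14450 CPM (-0.84, -0.85 to -0.83), IC-like (intercalated) cells at 11660 and 7090 CPM (-0.72, -0.73 to -0.71), TAL-like (thick ascending limb) cells at 40731 and 28651 CPM (-0.51, -0.51 to -0.50) and CD-like (collecting duct) cells at 9164 and 6937 CPM (-0.40, -0.42 to -0.39). PT-like cells were at 28374 and 24381 CPM (-0.22, -0.23 to -0.21), and injured PT-like cells, the highest class for this gene, at 49912 and 41870 CPM (-0.25, -0.26 to -0.25). The 3 classes with a higher level were pericyte-like cells (3489 and 6566 CPM), thin limb or inner medullary-like cells (22061 and 24689 CPM) and urothelial-like cells (5217 and 7848 CPM).

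Lymphoid cells and low-count barcodes followed the same direction. T-like cells were at 786 and 463 CPM (-0.76, -0.87 to -0.65) and T-, NK- and B-like cells together at 750 and 462 CPM (-0.70, -0.80 to -0.60). Barcodes under 100 UMIs, which hold mostly free RNA, were at 15448 and 11237 CPM (-0.46, -0.47 to -0.44). With the profile of those barcodes subtracted, scaled by tubular markers, macrophage-like Spp1 stood at 2818 and 1589 CPM (-0.83), and the level of monocyte-like and dendritic-like cells came to 0. The macrophage-like ratio was larger after the subtraction than before it, but its size follows the scaling. The scaling read 10.8% and 13.2% of macrophage-like UMIs as free and left 60.3% and 48.4% of the Spp1 UMIs. In these cells the DCT markers (235 and 269 CPM) and IC markers (132 and 166 CPM) were higher in the library labelled PHDTiEC. Those of PT (27.2 and 20.6 CPM), TAL (52.0 and 40.8 CPM) and CD (21.7 and 20.8 CPM) were lower. DCT markers were also at 234 and 254 CPM in T-, NK- and B-like cells, against 740 and 608 CPM in tubular-like cells. PT markers were at 1265 and 1051 CPM in tubular-like cells. The DCT list thus separated tubular-like from other cells less than the PT list did, and the amount subtracted depends on it. Whether the unequal shares reflect free RNA was not tested. In endothelial-like cells Spp1 was at 3042 and 2404 CPM (-0.34, -0.37 to -0.31) and stood at -0.05 without the barcodes that carry macrophage genes. Subtraction of free RNA left endothelial-like Spp1 at 0 and 577 CPM.

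**Figure D5:**
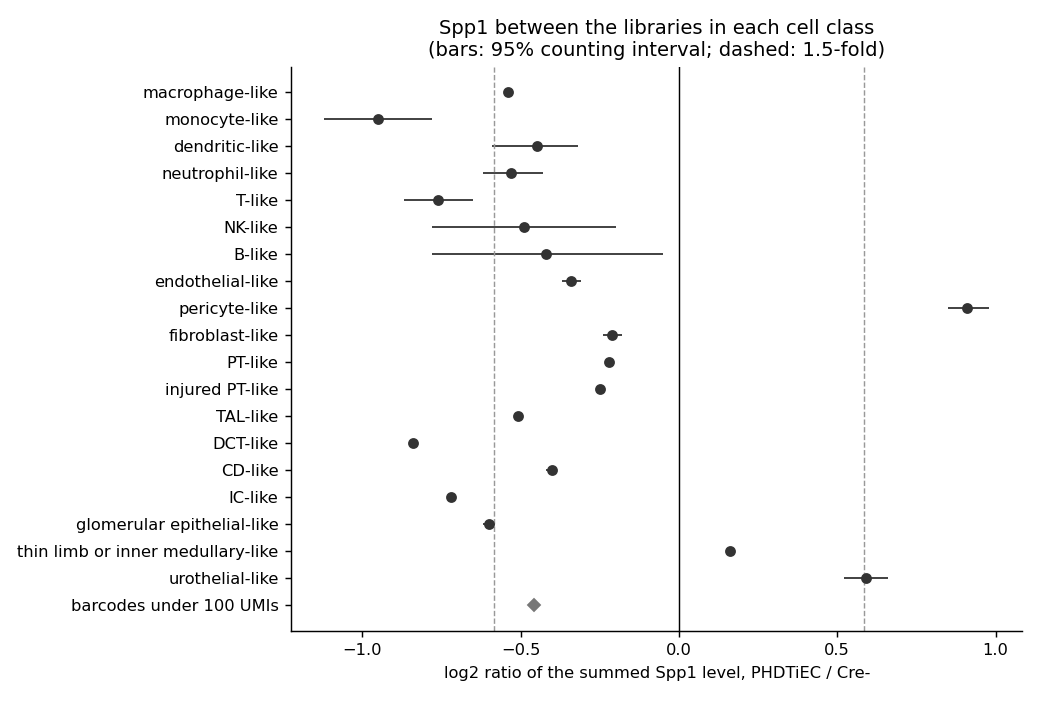
Log2 ratio of the summed Spp1 level, library labelled PHDTiEC over Cre-, in 19 cell classes (black circles) and in barcodes under 100 UMIs (grey diamond); bars are 95% counting intervals and dashed lines 1.5-fold. Spp1 is lower in 16 of 19 classes, and the low-count barcodes lie at -0.46. The ratio furthest below 0 is that of monocyte-like cells (-0.95). Their level came to 0 after subtraction of free RNA, whose amount depends on the tubular markers used.

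In monocyte-like cells 0 of the 9 genes with enough UMIs were higher past the fold (7.98% of 7473 genes were) and 1 was lower (10.1% were). These counts moved with the processing, to 3 higher and 0 lower with a complexity (log10 genes over log10 UMIs per barcode) of 0.8 or more, 0 and 4 with 30 principal components and 2 and 3 with doublets left out of the class. The lower gene was Spp1, at 819 and 424 CPM (-0.95, -1.12 to -0.78). Its level came to 0 after subtraction of free RNA, whose amount depends on the tubular markers used. Trem2, on 79 and 88 UMIs, was at 60.8 and 90.6 CPM (0.57, 0.12 to 1.03), and Apoe at 1935 and 2649 CPM (0.45, 0.37 to 0.53). The interval of the ratio included 0 for Lpl, Cd36, Fabp5 and Gpnmb. Arg1, with 3 and 8 UMIs, was below the minimum. Markers of macrophages were at 2580 and 2604 CPM in these cells, beside 7379 and 8574 CPM for monocyte markers.

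Dendritic-like cells had 3 of 9 genes higher past the fold, where 10.1% of 9123 genes were, and 1 lower, where 6.42% were. With 30 principal components 1 was higher and 0 were lower. Gpnmb was counted 2 times in Cre- cells and 39 times in the others (3.98, 2.03 to 7.07), and 51.3% of the 39 came from 1 barcode. Trem2 was at 18.7 and 44.1 CPM (1.24, 0.72 to 1.79) and Lpl at 89.7 and 163 CPM (0.86, 0.61 to 1.11). Barcodes with 3 or more UMIs of the macrophage genes C1qa, C1qb, C1qc, Adgre1 and Ms4a7, which were 11.9% and 16.8% of dendritic-like barcodes, held 87.8% and 91.7% of the Trem2 UMIs and 75.1% and 77.2% of the Lpl UMIs. Macrophage RNA thus accompanied Trem2 and Lpl in these barcodes. Without them Lpl stood at 0.84, and Trem2 and Gpnmb had too few UMIs left.

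Cd63 was lower in dendritic-like cells, at 245 and 130 CPM (-0.92, -1.12 to -0.72), and stood at -1.38 without the barcodes carrying macrophage genes, which held 17.5% and 44.5% of its UMIs. Fabp5 was at 318 and 260 CPM (-0.29, -0.44 to -0.13), and Cd36, for which dendritic-like cells were the second class, at 92.9 and 112 CPM (0.27, 0.00 to 0.53). The barcodes with 3 or more macrophage UMIs held 13.5% and 17.3% of the Fabp5 UMIs and 23.5% and 26.0% of the Cd36 UMIs. Arg1 had 0 and 2 UMIs.

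Tubular-like cells had 1 of 10 genes higher past the fold, where 4.11% of 16748 genes were, and 0 lower, where 4.76% were. The count of higher genes was 5 with a complexity of 0.8 or more, 4 as a mean over barcodes and 0 without the barcodes that carry macrophage genes. The higher gene was Arg1, with 118 and 289 UMIs (1.78 and 3.94 CPM, 1.15, 0.83 to 1.47), of which 1 barcode held 33.9% in the library labelled PHDTiEC. Barcodes with 3 or more macrophage UMIs, 19.1% and 21.5% of the class, held 83.9% and 93.4% of its Arg1 UMIs, and Arg1 stood at -0.09 without them. They also held 83.2% and 89.1% of the Trem2 UMIs, 75.9% and 77.0% of the Gpnmb UMIs and 64.3% and 74.5% of the Fabp5 UMIs. Trem2, Gpnmb and Arg1 in tubular-like barcodes thus lay mostly beside macrophage RNA.

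The tetraspanins, found in most tubular-like barcodes, lay close to 0. Cd63 was at 1584 and 1489 CPM (-0.09, -0.10 to -0.08) and Cd9 at 623 and 658 CPM (0.08, 0.06 to 0.10). Apoe was at 735 and 1070 CPM (0.54, 0.53 to 0.56), with PT-like cells at 1453 and 2294 CPM (0.66, 0.63 to 0.69), and stood at 0.52 without the barcodes carrying macrophage genes. Subtraction of free RNA, scaled here by neutrophil, T and B markers, left 8.37% and 30.9% of the tubular-like Apoe UMIs, 67.5 and 357 CPM. The subtraction thus read most of the Apoe UMIs of the pooled class as free RNA. After thinning, Apoe was found in 78.6% and 92.3% of PT-like barcodes but in 25.1% and 39.1% of IC-like ones. The pooled value does not show this difference between segments. Barcodes under 100 UMIs held Apoe at 7575 and 9559 CPM (0.34, 0.32 to 0.35). Over 15 alternative settings the tubular-like Apoe ratio ranged from 0.44 to 2.41.

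Endothelial-like cells, the class in which the deletion was aimed, had 4 of 10 genes higher past the fold, where 5.52% of 12750 genes were, and 0 lower, where 6.39% were. With doublets removed, with or without new clustering, 2 were higher and 3 lower, and with each barcode typed alone 3 were higher and 2 lower. Fabp5 was at 81.0 and 158 CPM (0.97, 0.80 to 1.14) and Cd36, which brings fatty acids into endothelium, at 12.2 and 24.2 CPM (0.98, 0.55 to 1.43). Barcodes with 3 or more macrophage UMIs, 9.09% and 7.59% of the class, held 37.8% and 35.0% of the Fabp5 UMIs and 27.4% and 26.5% of the Cd36 UMIs. Without them Fabp5 stood at 0.93 and Cd36 at 0.90, in barcodes that could still hold 1 or 2 such UMIs. Over 15 alternative settings Fabp5 ranged from 0.50 to 2.53 and Cd36 from 0.79 to 2.99.

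The other 2 rested on less. Arg1 had 7 and 57 UMIs (1.38 and 9.14 CPM, 2.73, 1.59 to 4.10) in 5 and 29 barcodes, 1.23% and 5.24% of the class. Its ratio was 2.82 without barcodes carrying macrophage genes but -0.77 when each barcode was typed alone. Gpnmb was at 17.0 and 33.4 CPM (0.97, 0.60 to 1.35), with 68.6% and 43.3% of its UMIs in 1 barcode each, and 83.7% and 91.8% of them lay in barcodes with macrophage genes. Without those barcodes its ratio was -0.12. Lpl was at 40.5 and 53.4 CPM (0.40, 0.14 to 0.66), Cd9 at 537 and 631 CPM (0.23, 0.16 to 0.30), Trem2 at 19.8 and 21.5 CPM (0.12, -0.26 to 0.51) and Cd63 at 356 and 330 CPM (-0.11, -0.20 to -0.01). One of the 2 endothelial-like clusters was also led by the pericyte gene Rgs5, and pericyte markers were at 3098 and 3227 CPM in the class.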

How the data were processed

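Single-cell 3' libraries (10x Genomics Chromium) were made from the injured kidney of 1 Cre- and 1 PHDTiEC sample. The deposited files hold raw UMI counts per gene and barcode that the authors made with Cell Ranger (version 4 in the file header) against mm10, for all barcodes. They sum to 136004367 and 146758812 UMIs.

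Barcodes with 500 to 100000 UMIs, at least 200 genes and at most 50% mitochondrial UMIs were kept. Seurat 5.3.0 (2000 variable genes without the 10 genes and the list genes, 20 principal components, resolution 0.8) clustered them, and clusters were named by marker lists. Barcodes scored as doublets (2.66% and 2.79%) were kept, and their removal was an alternative. UMIs were summed per class and library. Ratios carry exact binomial (Clopper-Pearson) and levels exact Poisson 95% intervals. The ratio intervals were checked on counts simulated with Poisson error, the error they assume. That check does not cover uneven counts between cells. Named genes are the 10 members, Egln1 to Egln3, list genes past 1.5-fold with at least 100 UMIs in macrophage-like cells (at most 4 a list), and the 3 genes most like each member. Other list genes, Vldlr and Gpihbp1 among them, were named after their values were seen. The members and lists were chosen with earlier results of these data known. Gene positions are from GENCODE vM21 (GRCm38), in which 32235 of 32285 identifiers were found. edgeR 4.0.16 gave TMM factors for 1 alternative. Other software was Python 3.11.15 with SciPy 1.17.1 and scanpy 1.11.5.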

Additional observations from a re-analysis of the deposited data

Results flagged for a closer look

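Arg1 differed in direction between cells, which was not tested. Its log2 ratio (library labelled PHDTiEC over Cre-) was 1.13 in macrophage-like cluster 0, 1.15 in tubular-like cells and 2.73 in endothelial-like cells, and -1.51 in the cycling macrophage-like cluster 19. Of the tubular-like Arg1 UMIs, 83.9% and 93.4% lay in barcodes with 3 or more macrophage UMIs. The endothelial-like ratio rested on 7 and 57 UMIs and ranged from -0.77 to 3.19 under other settings. In cluster 19 the share of barcodes with an Arg1 UMI was 20.6% in both libraries.

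Lpl also differed in direction, with a log2 ratio of 0.86 in dendritic-like cells and -1.06 in the shallow macrophage-like cluster 13, where it had 50 and 21 UMIs. That difference was not tested either.

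In barcodes under 100 UMIs, which entered no class, the 10 genes summed to 25399 CPM in the Cre- library and 23308 CPM in the library labelled PHDTiEC. There Apoe was at 7575 and 9559 CPM (log2 ratio 0.34, 0.32 to 0.35), Fabp5 at 292 and 346 CPM (0.24, 0.15 to 0.34) and Arg1 at 28.2 and 30.1 CPM (0.09, -0.23 to 0.42). The Apoe, Fabp5 and Spp1 ratios lay on the same side of 0 as in macrophage-like cells.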

How the results depend on the processing

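The median log2 ratio of the 10 genes in macrophage-like cells (-0.04) was 0.01 with at least 1000 UMIs and 500 genes, 0.00 with doublets removed, -0.08 at resolution 0.4 and 0.05 as a mean over barcodes. In dendritic-like cells (0.27) it was 0.48 with at least 1000 UMIs. In tubular-like cells (0.25) it was 0.10 with doublets removed, with or without new clustering, 0.07 with free RNA subtracted and -0.05 without barcodes carrying macrophage genes. In endothelial-like cells (0.32) it was -0.10 with doublets removed, -0.04 when they were only left out of the classes, and 1.45 with free RNA subtracted. The subtraction left 5 genes in each of these 2 classes. Causes were not tested. With at least 1000 UMIs, 50.4% of cluster 1 stayed macrophage-like. Single ratios past 1.5-fold that changed sign were Lpl in dendritic-like cells (-0.02 with 30 principal components), Arg1 in endothelial-like cells (-0.77, each barcode typed alone) and in tubular-like cells (-0.09 without macrophage genes), and Gpnmb in endothelial-like cells (-2.90 and -2.31 with doublets removed, -0.12 without macrophage genes). Of 704 ratios under these other settings 504 lay within their counting interval. In macrophage-like cells 8 of 10 genes kept their direction under all 15, and Spp1 ranged from -0.83 to -0.51 and Arg1 from -0.59 to -0.10. Ratios short of 1.5-fold changed sign in other cases, as in monocyte-like cells, where Fabp5 kept its direction in 9 of 15 settings. Trem2 in endothelial-like cells ranged from -2.44 to 0.46. The alternatives that left out macrophage-marker barcodes, or doublets with no new clustering, were chosen after seeing the data. No paired analysis was possible because each genotype has 1 library.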

Other observations

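The NK-like cluster (72 and 80 barcodes), led by Gzma, Klre1 and Ncr1, held Trem2 at 124 and 151 CPM and Apoe at 9718 and 15896 CPM, the second highest class for both, while Gpnmb was at 2.13 and 6.77 CPM and Arg1 at 4.26 and 11.3 CPM. After thinning 14.7% and 17.8% of its barcodes had a Trem2 UMI, against 2.07% and 1.55% of T-like barcodes. The NK-like cluster held 58 of the 88 and 67 of the 82 Trem2 UMIs of T-, NK- and B-like cells. The barcode richest in Apoe held 12.6% and 21.7% of the NK-like Apoe UMIs. Macrophage RNA in these barcodes was not examined.

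Fibroblast-like cells (163 and 304 barcodes) held 37 and 342 Gpnmb UMIs (log2 ratio 2.10, 1.61 to 2.63) and Arg1 at 9.26 and 51.2 CPM (2.47, 1.77 to 3.25). In the library labelled PHDTiEC the barcode richest in Gpnmb held 43.9% of its UMIs, and the barcode richest in Arg1 held 41.1% of its UMIs. The share of fibroblast-like barcodes with a Gpnmb UMI was 12.9% and 14.1%. Trem2 (1.19), Fabp5 (1.18), Cd36 (1.84) and Cd9 (0.11) were also higher, while Lpl (-0.58), Spp1 (-0.21), Cd63 (-0.20) and Apoe (-0.11) were lower. Macrophage RNA in these barcodes and the share of all genes past the fold were not examined.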
